A study of Homo sapiens with 8 samples.

Results

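The clustered protocadherins are a family of neuronal cell adhesion genes that lie side by side on chromosome 5. All protein-coding genes of chromosome 5 in GENCODE 44 (GRCh38) whose symbol starts with PCDHA, PCDHB or PCDHG were taken, which gave 53 of 19970 protein-coding genes on chromosomes 1 to 22 and X. They fall into 15 alpha, 16 beta and 22 gamma genes and span 726.8 kb, chr5:140786136-141512977, all on the plus strand. The rule reads gene names and positions and no peak values.

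Chromatin accessibility was measured by ATAC-Seq, in which the Tn5 transposase cuts open chromatin, in HEK293T, a human embryonic kidney cell line. There were 4 stable lines, each made with a lentivirus for 1 form of EZH2 (WT, Y641F, A677G or the double mutant H689A/F667I) and each measured in 2 libraries. EZH2 places methyl groups on lysine 27 of histone H3 as part of Polycomb repressive complex 2. In the study's terms, Y641F and A677G are gain-of-function (GOF) forms, while H689A/F667I is a loss-of-function (LOF) form. All lines were selected with blasticidin, which the study did to obtain monoclonal populations, and no removal of the endogenous EZH2 is described, so each line is a single selected population with the cell's own EZH2 beside the introduced one. The libraries held 26350 to 64923 peaks, with the fewest in Y641F and the most in WT, and their read depth is unknown. Among genes of the kidney lineage, PAX2 had a promoter peak in all 8 libraries, LHX1 in both WT libraries only and PAX8 in none. Among genes of other cell types, PTPRC, CD3E and ALB had no promoter peak in any library and HBB had one in both A677G libraries.

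Each alpha and gamma gene is a variable first exon with a promoter of its own that is spliced to constant exons shared by its subcluster, whereas each beta gene is a single exon. A neuron turns on a small, partly random choice of these promoters, and the combination of isoforms on its surface lets it tell its own branches from those of other cells. Promoter choice is known to involve CTCF and cohesin, distant enhancers, antisense transcription and DNA methylation. The last genes of the alpha and gamma subclusters, PCDHAC1, PCDHAC2, PCDHGC3, PCDHGC4 and PCDHGC5, are called C-type isoforms and are known to be used more constantly than the others. Most promoters of the family share a conserved sequence element around the letters CGCT.

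The sequences of 7 promoters are shown because they carry the contrasts described below, between promoters that were open in every library, in some and in none. Each is the 250 bases before the transcription start site (TSS) in GRCh38, plus strand. The first set holds gamma promoters, at chr5:141475716-141475965, chr5:141484780-141485029 and chr5:141382492-141382741, with the 8-letter word shared by the most gamma promoters in capitals.
PCDHGC3: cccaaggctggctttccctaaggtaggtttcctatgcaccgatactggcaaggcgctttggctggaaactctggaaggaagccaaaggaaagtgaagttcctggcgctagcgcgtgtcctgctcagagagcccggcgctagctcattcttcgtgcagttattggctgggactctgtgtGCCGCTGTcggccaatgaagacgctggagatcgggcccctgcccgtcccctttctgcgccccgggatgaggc
PCDHGC4: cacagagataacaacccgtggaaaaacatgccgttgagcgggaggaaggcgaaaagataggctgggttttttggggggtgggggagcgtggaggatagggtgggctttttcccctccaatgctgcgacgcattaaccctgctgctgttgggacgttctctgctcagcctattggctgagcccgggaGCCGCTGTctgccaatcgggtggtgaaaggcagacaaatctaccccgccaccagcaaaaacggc
PCDHGA7: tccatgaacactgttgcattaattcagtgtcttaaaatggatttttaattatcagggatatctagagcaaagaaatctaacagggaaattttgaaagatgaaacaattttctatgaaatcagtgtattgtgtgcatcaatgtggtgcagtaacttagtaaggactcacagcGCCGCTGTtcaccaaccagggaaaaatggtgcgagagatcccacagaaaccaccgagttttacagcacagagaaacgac

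The second set holds alpha promoters at chr5:140855647-140855896, chr5:140868707-140868956 and chr5:140926049-140926298. In PCDHA10 the capitals mark the overlapping words shared by the most alpha promoters, and in the other two, PCDHA11 and PCDHAC1, which lack these words, each CGCT on either strand.
PCDHA10: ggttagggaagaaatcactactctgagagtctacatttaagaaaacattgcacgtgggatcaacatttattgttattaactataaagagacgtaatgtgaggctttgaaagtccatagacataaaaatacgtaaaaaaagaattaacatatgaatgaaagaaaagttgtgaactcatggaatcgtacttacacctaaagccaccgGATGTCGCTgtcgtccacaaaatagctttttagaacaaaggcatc
PCDHA11: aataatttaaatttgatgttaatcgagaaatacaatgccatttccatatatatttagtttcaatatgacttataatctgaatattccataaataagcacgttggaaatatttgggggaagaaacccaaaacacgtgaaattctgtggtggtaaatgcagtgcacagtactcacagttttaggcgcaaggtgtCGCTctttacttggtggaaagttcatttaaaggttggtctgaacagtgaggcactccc
PCDHAC1: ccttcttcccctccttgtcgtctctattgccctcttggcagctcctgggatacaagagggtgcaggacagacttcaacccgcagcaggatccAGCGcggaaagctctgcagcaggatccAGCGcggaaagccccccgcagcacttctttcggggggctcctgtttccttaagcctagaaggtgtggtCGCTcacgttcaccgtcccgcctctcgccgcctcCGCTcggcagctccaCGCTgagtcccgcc

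The last is a beta promoter, at chr5:141223093-141223342, again with the overlapping words shared by the most beta promoters in capitals.
PCDHB14: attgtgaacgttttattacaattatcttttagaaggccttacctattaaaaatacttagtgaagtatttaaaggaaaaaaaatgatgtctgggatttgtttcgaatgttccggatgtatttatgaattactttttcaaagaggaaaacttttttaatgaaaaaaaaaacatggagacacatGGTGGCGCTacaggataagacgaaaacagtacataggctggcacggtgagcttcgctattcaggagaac

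The letters CGCT, searched on both strands in the 300 bases from 250 before to 50 after the TSS, occurred in 51 of 53 clustered protocadherin promoters and in 82.5% of all protein-coding promoters. In each subcluster a word shared by the most promoters carried these letters, with different neighbours, and in the alpha and beta subclusters an overlapping word shifted by 1 base was as frequent. In the alpha subcluster, ATGTCGCT and GATGTCGC were each found in 10 of 15 promoters and in 0.290% and 0.421% of all promoters. In the beta subcluster, GTGGCGCT and GGTGGCGC were each found in 14 of 16 promoters and in 1.59% and 2.94% of all promoters. In the gamma subcluster, GCCGCTGT was found in 12 of 22 promoters and in 2.07% of all promoters. None of these words was found in a promoter of another subcluster. Their median centres lay 48 to 63 bases upstream of the TSS. The words were chosen as the most frequent ones in these same promoters, so their high share there is a description.

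A promoter was called open in a library when the 500 bp window centred on its TSS held at least 1 bp of a called peak, and closed otherwise. Closed thus means that no peak was called, and signal under the caller's threshold may be present. By this measure 9 clustered protocadherin promoters were open in each WT library, 2 and 3 in the Y641F libraries, 3 and 4 in the A677G libraries, and 6 in each H689A/F667I library. Most of the family was thus closed in every line, with fewest open promoters in the GOF lines. The order of the mutants did not hold when only peaks with a −log10 q of 5 or more were kept, with a mean of 3 open members in WT, 1.5 in Y641F, 2.5 in A677G and 2 in the LOF libraries. Under this cut 53.5 and 52.3% of all protein-coding promoters were open in WT, 23.8 and 34.7% in Y641F, 35.9 and 41.2% in A677G, with 41.3 and 43.4% in the LOF libraries. With all peaks, the open members were 17.0% of the 53 promoters in both WT libraries (95% Wilson interval 9.20 to 29.2, counting error only) and 3.77% (1.04 to 12.8) in Y641F replicate 1. Over all protein-coding genes 53.5 to 66.4% of promoters were then open per library, with Y641F replicate 1 lowest and WT replicate 1 highest. The range was 33.3 to 59.0% for 39 HOX genes, 57.4 to 77.5% for 249 zinc finger ZNF genes on chromosome 19, 56.4 to 61.8% for 55 histone genes on chromosome 6 and 54.5 to 81.8% for 11 non-clustered protocadherins. In every library the clustered protocadherins were below each of these groups.

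**Figure D1:**
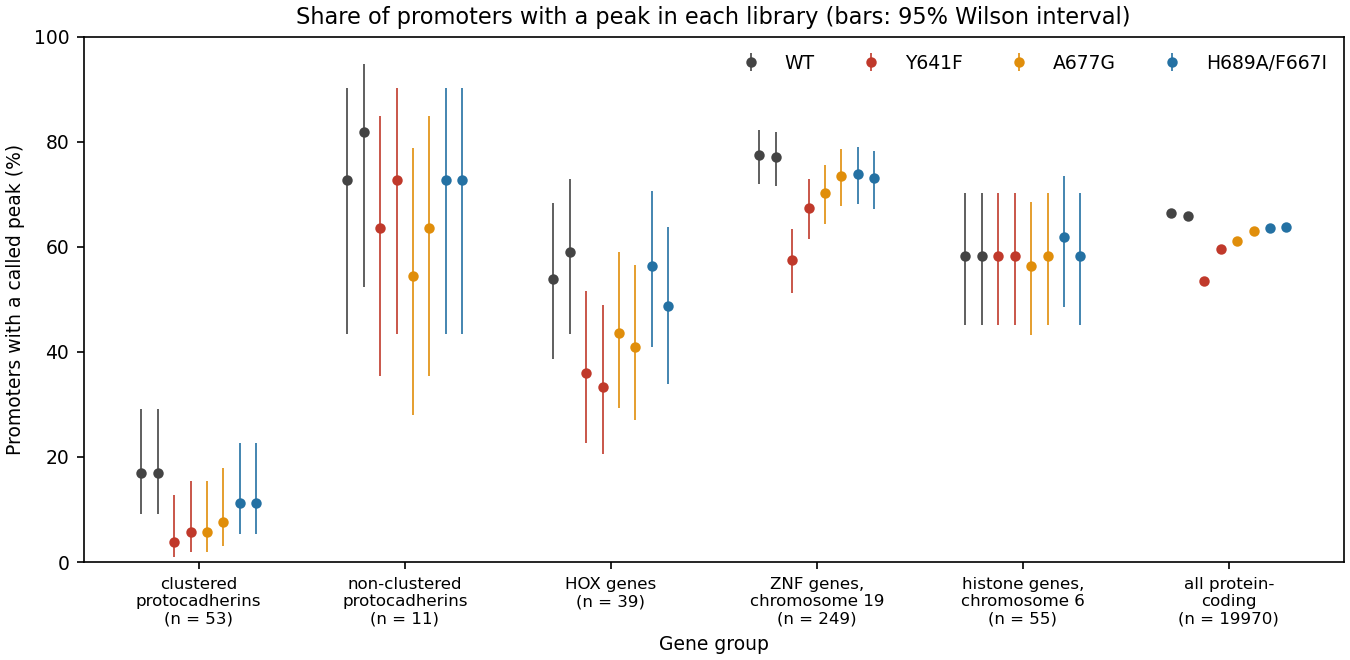
Percentage of promoters with a called peak, for 6 gene groups, with 1 point per library coloured by line and bars for the 95% Wilson interval. The clustered protocadherins lie between 3.77 and 17.0%, below every other group in every library.

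Over the 8 libraries, 11 of the 53 promoters were open at least once and 42 were never open. The 11 were 2 alpha, 2 beta and 7 gamma promoters. Of the 19970 protein-coding promoters 30.6% were open in no library and 51.9% in all 8, against 79.2% and 3.77% of the clustered protocadherins. The never open alpha promoters were PCDHA1 to PCDHA10, PCDHA12, PCDHA13 and PCDHAC2. The never open beta promoters were PCDHB1 to PCDHB7, PCDHB9 to PCDHB13, PCDHB15 and PCDHB16. The never open gamma promoters were PCDHGA2 to PCDHGA6, PCDHGA8 to PCDHGA10, PCDHGA12, PCDHGB1, PCDHGB2, PCDHGB4 to PCDHGB6 and PCDHGC5.

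Base composition differed between the family and other genes. The median GC content of the 300 bases around the TSS was 39.3% over the 53 promoters and 63.7% over all protein-coding promoters. Among promoters with a GC content under 45%, 7 of 41 clustered protocadherins (17.1%) and 14.7% of all 2020 such promoters were open in at least 1 library. In both WT libraries 7.32% of these members and 10.1% of all such promoters were open, and in all 8 libraries 0 of 41 and 5.69%. Among those with 45% or more, 4 of 12 clustered protocadherins (33.3%) and 75.5% of all 17950 were open in at least 1 library. These 4 were PCDHAC1, PCDHGB7, PCDHGC3 and PCDHGC4. The C-types PCDHAC2, with 63.0% GC, and PCDHGC5, with 55.7%, were closed in all libraries. The division at 45% was chosen after the values were seen.

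The genes PCDHGC3 and PCDHGC4, the first 2 of the 3 gamma C-types along the chromosome, were the only members open in all 8 libraries. Fold in what follows is the ratio of the peak's pileup to its local background, and −log10 p its significance, both as given by the peak caller. At PCDHGC3 (ENSG00000240184.7, TSS at 141475966) the fold was 6.43 and 5.37 in WT, 5.90 and 5.36 in Y641F, 5.96 and 5.30 in A677G, with 6.32 and 6.32 in the LOF libraries. The GOF values, 5.30 to 5.96, overlapped those of the other libraries, 5.37 to 6.43. Its −log10 p was 20.7 and 13.6 in WT, 16.5 and 15.5 in Y641F, 15.4 and 14.3 in A677G, with 17.9 and 19.4 in the LOF libraries. Among all peaks of the same library its fold ranked between the percentiles 91.4 and 98.4. The peak was 949 and 917 bp wide in WT and 740 to 818 bp in the mutants, so the WT peaks were the widest.

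At PCDHGC4 (ENSG00000242419.6, TSS at 141485030) the fold was 4.73 and 4.64 in WT, 3.86 and 3.87 in Y641F, 5.01 and 4.51 in A677G, with 4.87 and 5.13 in the LOF libraries. Both Y641F libraries were below the other 6, which ran from 4.51 to 5.13. The means were 4.68 ± 0.0701 (SD, n = 2) in WT and 3.87 ± 0.00556 (SD, n = 2) in Y641F. With 2 libraries on each side no exact permutation test can reach a threshold of 0.05, so this is given as values. Its −log10 p was 10.0 and 9.07 in WT, 7.79 and 7.95 in Y641F, 9.33 and 9.79 in A677G, with 9.44 and 10.6 in the LOF libraries. The fold and the −log10 p were higher at PCDHGC3 than at PCDHGC4 in 8 of 8 libraries, with a ratio of folds of 1.16 to 1.53. The PCDHGC3 peak was centred 73.0 to 204 bp downstream of its TSS and the PCDHGC4 peak 101 to 376 bp upstream of its own. Both promoters carry the gamma word printed above, 65 to 72 bases upstream of the TSS in PCDHGC3 and 57 to 64 bases upstream in PCDHGC4. Of the 12 gamma promoters with this word, 4 were open at least once, PCDHGA1, PCDHGA7, PCDHGC3 and PCDHGC4, and the rest were closed in all libraries. PCDHGB3, PCDHGB7 and PCDHGA11 lack the word and were open at least once.

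**Figure D2:**
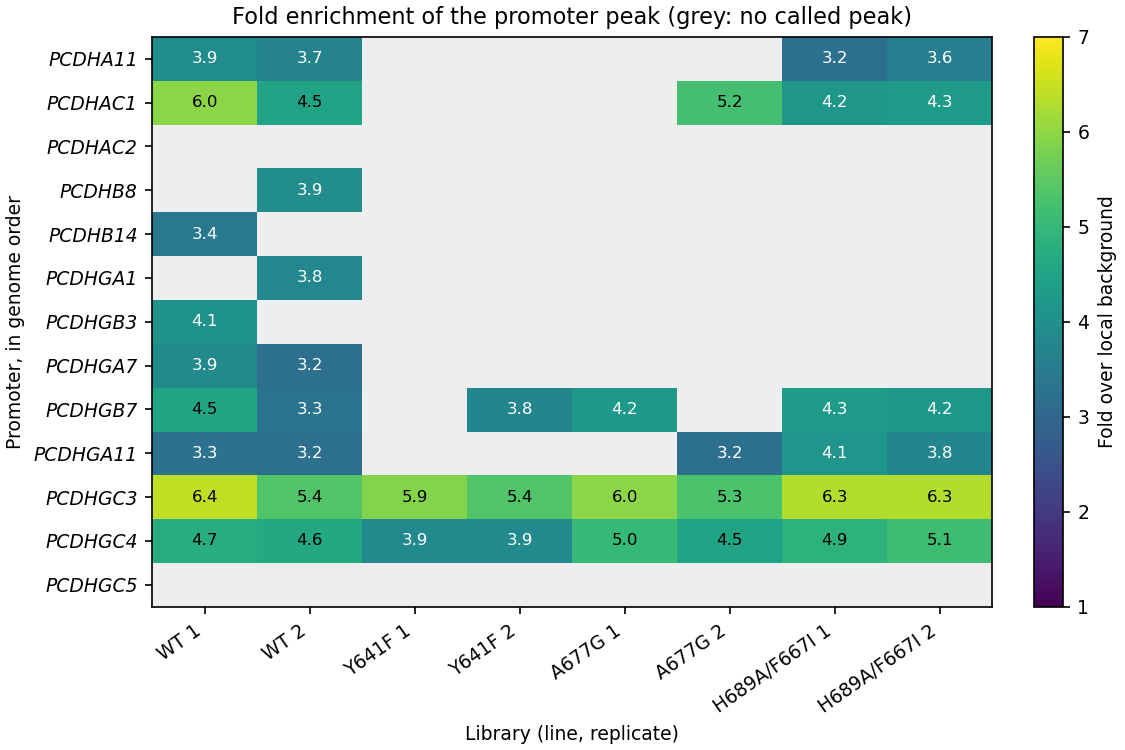
Fold over local background of the promoter peak at the 11 promoters open in at least 1 library and the 2 closed C-types, PCDHAC2 and PCDHGC5, by library. Grey cells have no called peak, and only the rows of PCDHGC3 (5.30 to 6.43) and PCDHGC4 (3.86 to 5.13) are filled across all libraries.

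The third open C-type was PCDHAC1 (ENSG00000248383.5, TSS at 140926299), a GC-rich alpha promoter with 66.0% GC. Its promoter peak had a fold of 5.96 and 4.50 in WT, 5.20 in A677G replicate 2, and 4.17 and 4.31 in H689A/F667I. In A677G replicate 1 no peak was called near it. Both Y641F libraries had a peak with a fold of 3.86 and 4.46, but it was 200 and 221 bp wide and began 275 and 270 bp downstream of the TSS, just outside the promoter window. The WT peaks, 520 and 728 bp wide, reached from 5 and 81 bp upstream of the TSS to 514 and 646 bp downstream. By the 500 bp window PCDHAC1 was therefore closed in Y641F, whereas with 500 bp to each side of the TSS it was open in both Y641F libraries.

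The other open alpha promoter was PCDHA11 (ENSG00000249158.7, TSS at 140868957), 1 of the 13 alternate isoforms. Its fold was 3.92 and 3.69 in WT and 3.20 and 3.55 in H689A/F667I, and no peak was called in the 4 GOF libraries. Its −log10 p was 5.26 and 4.76 in WT and 3.65 and 4.34 in H689A/F667I, so it was a weak peak where it was called. The WT peaks were 756 and 849 bp wide and the H689A/F667I peaks 218 and 369 bp. PCDHA11 carries 1 CGCT, shown in capitals above, and lacks the alpha word, as do PCDHAC1, which was open too, and PCDHA9, PCDHA13 and PCDHAC2, which were closed in all libraries. The 10 alpha promoters that have that word, PCDHA10 among them, were closed in all libraries.

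**Figure D3:**
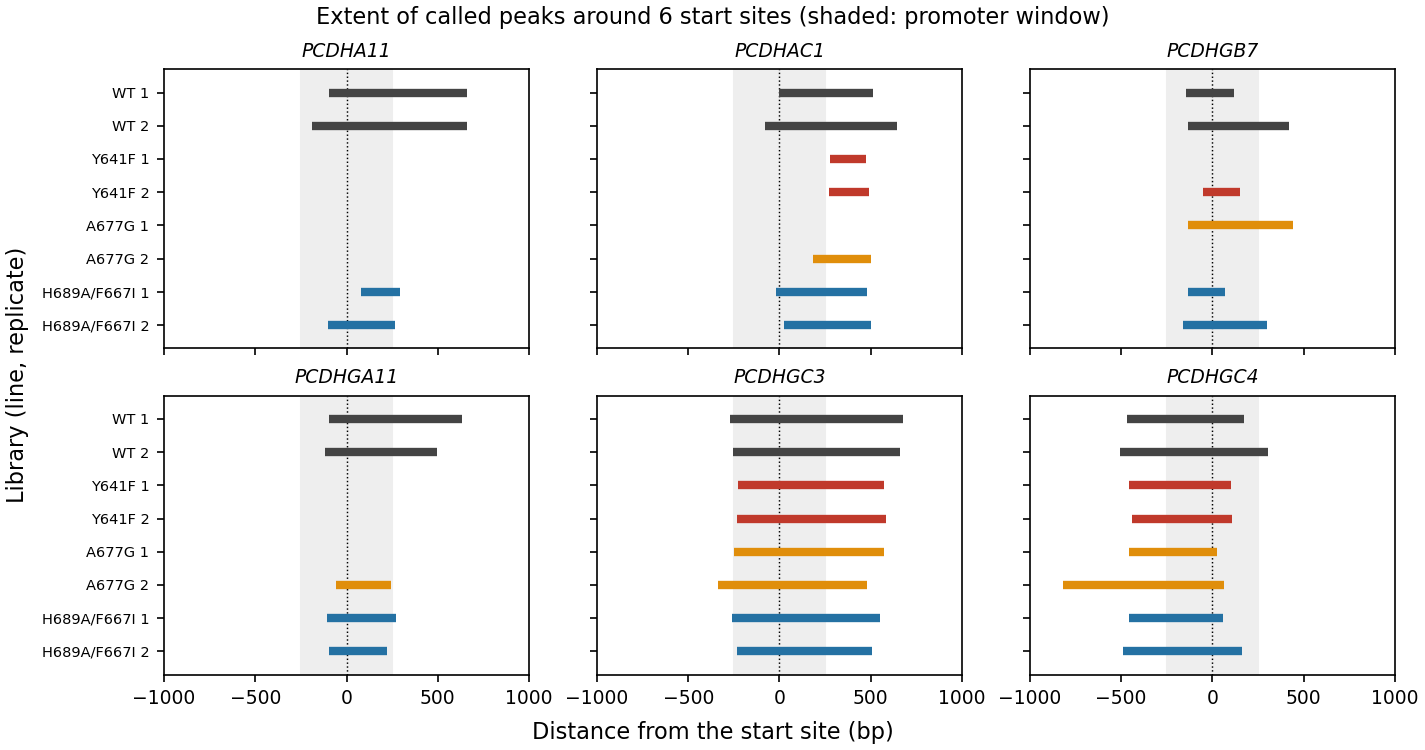
Extent of called peaks, in bp from the TSS, at 6 promoters in the 8 libraries, coloured by line, with the promoter window shaded. The Y641F peaks at PCDHAC1 begin 270 and 275 bp downstream and miss the window, and the PCDHGC4 peaks lie mostly upstream of the TSS.

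Among the beta genes, which have no constant exons and no C-type, no promoter was open in both libraries of any line. PCDHB8 (TSS at 141177790) had a peak in WT replicate 2 alone, with a fold of 3.95 and a −log10 p of 5.25. PCDHB14 (TSS at 141223343) had one in WT replicate 1 alone, with a fold of 3.42 and a −log10 p of 4.21. Each of these peaks was 218 bp wide. The PCDHB14 peak also overlapped the first exon of ENSG00000279983, another protein-coding model that starts there, and these promoters cannot be told apart. Of the 14 beta promoters that carry the words printed above, 2 were open at least once, PCDHB8 and PCDHB14.

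In the gamma subcluster, 5 alternate isoforms were open in at least 1 library beside the 2 C-types. PCDHGB7 (ENSG00000254122.3, TSS at 141417677) had a fold of 4.55 and 3.30 in WT, 3.76 in Y641F replicate 2, 4.20 in A677G replicate 1, and 4.29 and 4.20 in H689A/F667I. The other GOF library of each line had no peak there. PCDHGA11 (ENSG00000253873.6, TSS at 141421051) had a fold of 3.27 and 3.22 in WT, 3.21 in A677G replicate 2, and 4.13 and 3.75 in H689A/F667I, and no peak in Y641F. At PCDHGA11 the −log10 p was 4.14 and 4.44 in WT, so the peak was weak there. PCDHGA7 (ENSG00000253537.3, TSS at 141382742), whose sequence is printed above, had a fold of 3.86 and 3.20 in WT and no peak in any mutant library. Its −log10 p was 5.13 and 3.73 in WT, so it was a weak peak there too. PCDHGB3 was open in WT replicate 1 alone, with a fold of 4.07, and PCDHGA1 in WT replicate 2 alone, with a fold of 3.79. Reads from near-identical copies could be split at a few promoters. The share of 50-base words found elsewhere in the locus was 31.0% at PCDHB8 and 25.7% at PCDHGB7, which were open at least once, and 32.6% at PCDHB13, 25.7% at PCDHGB6, 21.3% at PCDHGB5 and slightly less at PCDHGB4, which were never open. It was over 50% at 0 of 53 promoters.

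The study contrasts the mutants with WT to ask where accessibility was changed. A promoter was called lost in a mutant when both WT libraries held a peak there and neither library of the mutant did, retained when it was open in all 4, and gained in the reverse case of lost. Of 53 members 7 were open in both WT libraries, namely PCDHA11, PCDHAC1, PCDHGA7, PCDHGB7, PCDHGA11, PCDHGC3 and PCDHGC4. In Y641F, 4 of the 7 were lost (PCDHA11, PCDHAC1, PCDHGA7 and PCDHGA11), against 7.90% of the 12907 protein-coding promoters open in both WT libraries. In A677G, 2 of the 7 were lost (PCDHA11 and PCDHGA7), against 2.73% of all. In H689A/F667I, 1 of the 7 was lost (PCDHGA7), against 1.86% of all. Without either WT library the lost members were 6 of 9 for Y641F, 4 of 9 for A677G and 3 of 9 for the LOF mutant, and without A677G replicate 2 the count for A677G was 4 of 7. PCDHGC3 and PCDHGC4 were retained in each mutant, and PCDHGB7 and PCDHGA11 were retained in H689A/F667I with PCDHA11 and PCDHAC1. Of the 42 members closed in both WT libraries, 0 were gained in any mutant, against 0.109%, 0.202% and 0.419% of all such promoters in Y641F, A677G and H689A/F667I.

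In WT, the peaks of the 7 members open in both libraries were mostly weaker than those of other open promoters. The mean WT −log10 p had a median of 6.16 over the 7 members (range 4.29 to 17.1) and 11.6 over the 12907 promoters. Among promoters with a mean WT −log10 p under 10, a bound chosen after the values were seen, 4 of 6 members were lost in Y641F against 19.9% of all, 2 of 6 in A677G against 6.79%, and 1 of 6 in H689A/F667I against 4.57%. The 3 comparisons share the WT libraries, and the counts over 7 members carry no test. Strength was not matched within the bound. Of the 4 members lost in Y641F, the WT −log10 p was 5.26 and 4.76 at PCDHA11, 5.13 and 3.73 at PCDHGA7 and 4.14 and 4.44 at PCDHGA11. It was 11.4 and 6.85 at PCDHAC1. Of 6 members open in all 4 WT and LOF libraries, PCDHA11 was closed in all 4 GOF libraries, against 0.442% of all promoters. When each list was reduced to its strongest 26350 peaks by −log10 p, 3 members stayed open in both WT libraries, and the lost ones were 1 in Y641F (PCDHAC1) and 0 in the other mutants. Among all 10537 promoters open in both WT libraries at equal numbers, the LOF line lost 1.65%, the A677G line 1.53% and the Y641F line 2.78%. The Y641F peaks at PCDHAC1 began 275 and 270 bp downstream of the TSS, just outside the window. Their −log10 p was 5.03 and 6.37, above the weakest peak kept in these libraries (3.31 and 4.66). At equal numbers PCDHA11 was closed in WT too, since the weakest peak kept had a −log10 p of 6.85 and 6.75 in the WT libraries.

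Over the whole locus, the 8 lists held 70 peaks, of which 42 lay at member promoters. The number of peaks in the locus was 18 and 15 in WT, 4 and 5 in Y641F, 5 and 5 in A677G, with 8 and 10 in the LOF libraries. Per 10000 peaks of the library this was 2.77 and 2.40 in WT, 1.52 and 1.37 in Y641F, 1.32 and 1.08 in A677G, with 1.67 and 2.05 in the LOF libraries. The 4 GOF libraries lay below the 4 WT and LOF libraries without overlap, also relative to their smaller number of peaks. The mean was 1.32 ± 0.182 (SD, n = 4) in the GOF libraries and 2.22 ± 0.471 (SD, n = 4) in the others, and p was 0.0286 over the 70 assignments of an exact permutation test (two-sided), the smallest this design allows. With labels permuted only within a replicate number (replicate block) p was 0.0556 in the exact test, the smallest that this permutation allows, so the block could not pass the threshold. In the unblocked exact test p was 0.0571 when any 1 of the 4 GOF libraries was left out. When only peaks with a −log10 q of 5 or more were kept, the GOF libraries were higher by 0.51 peaks per 10000 (p = 0.229, exact permutation test). At equal peak numbers the difference was no longer past the threshold (p = 0.657, exact permutation test), with 5 and 4 peaks in the locus in WT, 4 and 5 in Y641F, 5 and 4 in A677G, with 6 and 5 in the LOF libraries. Libraries of 1 line are not independent lines, and the mutation cannot be told apart from other differences between the lines.

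**Figure D4:**
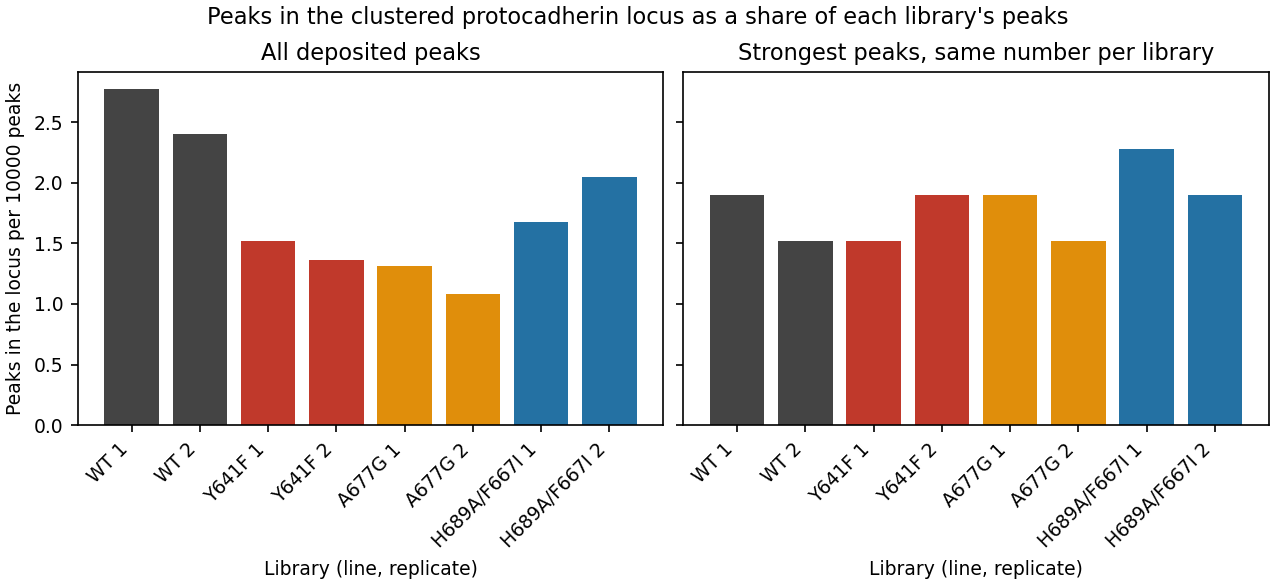
Peaks in the clustered protocadherin locus per 10000 peaks of each library, for all deposited peaks (left) and for the strongest 26350 of each library (right), with bars coloured by line. With all peaks the GOF libraries lie at 1.08 to 1.52 and the others at 1.67 to 2.77, and with equal numbers the libraries of all lines overlap.

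The length under peaks in the locus gave a less clear split. It was 221 and 217 bp per Mb under peaks in the WT libraries, 150 and 114 in Y641F, 131 and 126 in A677G, with 125 and 153 in the LOF libraries. The WT libraries stood above all others, and the GOF and LOF libraries overlapped. The mean was 130 ± 15.3 (SD, n = 4) in the GOF libraries and 179 ± 47.8 (SD, n = 4) in the WT and LOF libraries, a difference not past the threshold (p = 0.143, exact two-sided permutation test). Without H689A/F667I replicate 1 the same exact test gave p = 0.0286, and among peaks with a −log10 q of 5 or more the GOF libraries were higher by 65.3 bp per Mb (p = 0.0857, exact test). Peaks covered 1.29% and 1.23% of the locus in WT, 0.314 to 0.467% in the GOF libraries and 0.510% and 0.639% in the LOF libraries, so the LOF libraries were nearer to the GOF libraries than to WT.

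Peaks that shared at least 1 bp across libraries were merged into 22 regions, 11 at the open promoters and 11 elsewhere. All 22 held a WT peak, 7 held a peak in at least 1 GOF library and 3 were open in all 8 libraries. Of the 10 regions found in 1 library only, all were in WT, which had the most peaks. Of 11 regions open in both WT libraries, 6 had no peak in Y641F, 4 none in A677G and 1, the PCDHGA7 promoter, none in H689A/F667I. Over the genome, of 48615 merged regions open in both WT libraries, 35.3% had no peak in Y641F, 20.8% none in A677G and 14.2% none in H689A/F667I. Merged in this way the PCDHAC1 region was open in both Y641F libraries, since the region extends past the promoter window.

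**Figure D5:**
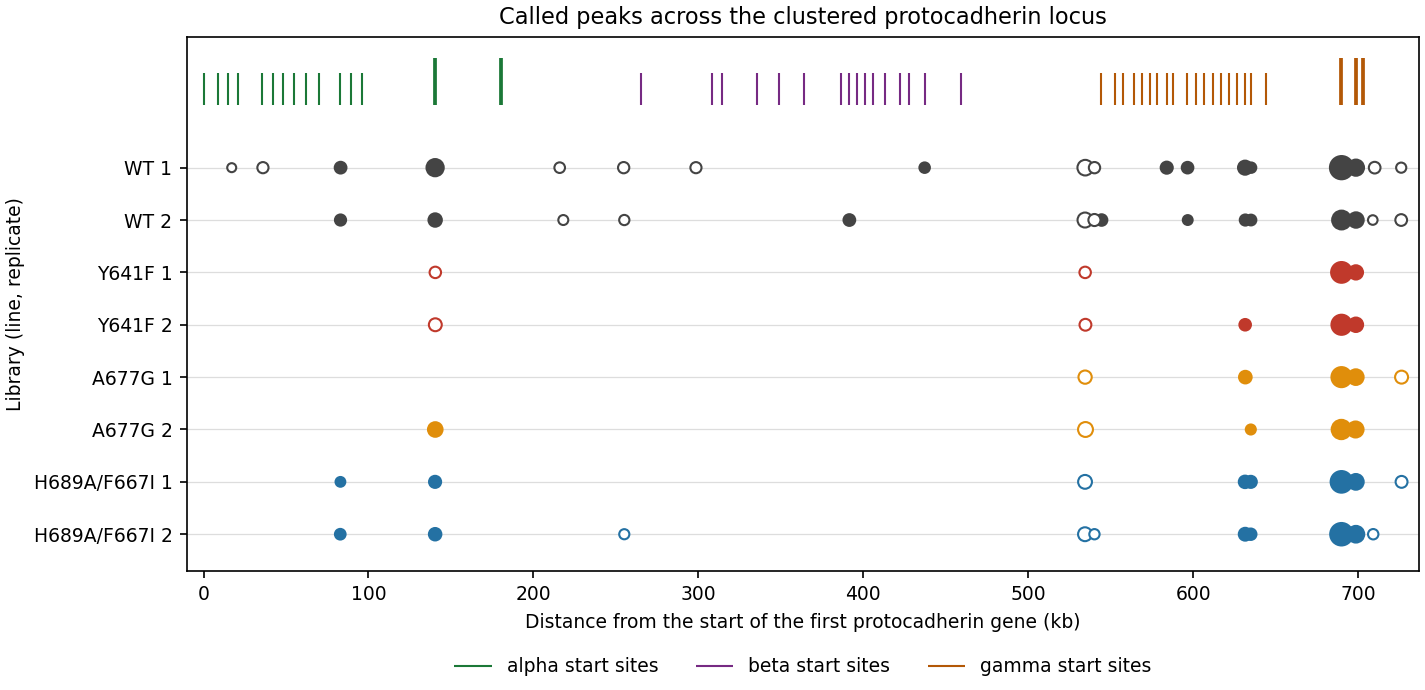
Called peaks along the locus, in kb from the start of PCDHA1, with 1 row per library; filled points lie at member promoters, open points elsewhere, and point area follows −log10 p. The upper ticks are start sites by subcluster, with C-types taller. Only the right end, at PCDHGC3 and PCDHGC4, has filled points in every row, and the TAF7 region near 535 kb has an open point in every row.

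The third region open in all 8 libraries was no protocadherin promoter but that of TAF7, a subunit of the general transcription factor TFIID, and of the divergent lncRNA ENSG00000288095, between the beta and gamma subclusters at chr5:141320253-141321346. Its fold was 5.20 and 5.22 in WT, 3.86 and 4.00 in Y641F, 4.61 and 5.07 in A677G, with 4.80 and 4.95 in the LOF libraries. As at PCDHGC4, both Y641F libraries were the lowest. The next region, at the start of the lncRNA ENSG00000272070 (chr5:141326071-141326613), was open in both WT libraries and H689A/F667I replicate 2, with folds of 3.41 to 4.03. SLC25A2, a mitochondrial ornithine carrier and the only other named protein-coding gene in this stretch, had no peak.

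Between the alpha and beta subclusters, a region at chr5:141040334-141041426 was open in both WT libraries (folds 3.73 and 3.36) and in H689A/F667I replicate 2 (3.34). It overlaps the lncRNA ENSG00000288892 in WT replicate 1 and lies in the interval in which an enhancer of the alpha promoters is known, and whether it is that enhancer was not tested. The last gamma exon, shared by all gamma isoforms, held a region at chr5:141512022-141512736 that was open in both WT libraries, A677G replicate 1 and H689A/F667I replicate 1, with folds of 2.71 to 3.62. The rest were a region in the gamma constant part, at chr5:141494769-141495538, open in WT replicate 2 and H689A/F667I replicate 2, and 6 regions open in a single WT library. Of these 6, 1 lay in the PCDHA3 exon, 1 in the PCDHA5 exon, 435 to 643 bp downstream of its TSS, 2 in introns of the alpha constant part, 1 between beta genes and 1 in a gamma intron.

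Of the 42 peaks at member promoters 30 were centred downstream of the TSS and 12 upstream, with 8 of the 12 at PCDHGC4, and 39 covered the TSS itself. Their median width was 549 bp, from 200 to 949 bp. Per library, the median fold of the members' promoter peaks was 3.79 to 5.01, and that of all open protein-coding promoters 4.03 to 4.22. In the WT libraries the median width was 528 and 634 bp for the members and 1176 and 1162 bp for all. The members' median was narrower in each library, while the medians of fold overlapped.

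The non-clustered protocadherins, single genes outside the cluster that share the extracellular cadherin repeats, were mostly open. PCDH1 and PCDH12 among them also lie on chromosome 5, with TSSs at 141878410 and 141958202, past the end of the locus. Of 11, PCDH1, PCDH7, PCDH9, PCDH10, PCDH18 and PCDH19 were open in all 8 libraries, and PCDH12 and PCDH11X in none. PCDH17 was lost in Y641F and open in 1 A677G library, PCDH20 was lost in A677G and open in 1 Y641F library, and PCDH8 was open in 1 WT library and both Y641F libraries. Of 12 genes known to act on the promoters and loops of the cluster, such as CTCF, RAD21, SMCHD1 and SETDB1, 11 were open in all 8 libraries. The twelfth, DNMT3B, a DNA methyltransferase, was closed in 1 Y641F library, so 0 of 12 were lost or gained in any mutant.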

How the data were processed

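ATAC-Seq peak lists of 8 HEK293T libraries were used, 2 for each of 4 EZH2 lines, with groups read from the titles of the samples. As the study's methods and the submitters' processing notes state, the authors trimmed reads with Trim Galore 0.6.5, aligned them to GRCh38/hg38 with BWA 0.7.17, removed duplicates with Samtools and called broad peaks with MACS2 2.2.7.1 in each library, and made tracks with deepTools 3.5.1. The deposited lists give a fold (ratio) over local background and, for each peak, a −log10 p, a −log10 q and a score, the last left unused here. Read depth is unknown, and how reads were shifted for the transposase is not given in the sources used here, so only called peaks were compared and weak peaks depend on the depth of each library.

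TSSs were the 5′ ends of Ensembl canonical transcripts in GENCODE 44, and sequences were read from the hg38 reference. Only chromosomes 1 to 22 and X were kept, and 0 peaks ended beyond the hg38 chromosome lengths. Promoters, regions and the 2 rates over the locus were computed in Python 3.11.15 with pandas 2.3.3 and numpy 2.4.6, and figures were drawn with matplotlib 3.10.9. The calls were tested on a copy of the WT replicate 1 list from which the peaks at randomly picked open promoters were removed. The permutation test was tested on random numbers against that of scipy 1.17.1. The threshold was 0.05, without adjustment over the 2 rates.

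The members, gene lists, named genes and tests were chosen with earlier results of these data known. Genes named with values were those lost or gained in a mutant, the C-types, the 3 members of each subcluster with the highest mean percentile of fold, and the promoters open at least once. The alternatives were a −log10 q of at least 5, equal numbers of peaks, windows of 500 and 1000 bp to each side, the gene's 5′ end as TSS, 250 bp of the window under peaks, leaving out each library, permutation within replicate numbers (replicate block) and raw numbers. No pairing by equal replicate numbers was seen in the open calls: the deviations of replicate 1 from the mean of its line, over all promoters, had a correlation of -0.018 to 0.045 over 6 pairs of lines. Only promoters at which the libraries of a line differ enter this check, so it cannot exclude a batch shared by replicate number. Some genes of the cell type marker lists are not reported here.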

Additional observations from a re-analysis of the deposited data

Results flagged for a closer look

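In 18 groups of 4 libraries (the GOF libraries, and the WT and LOF libraries, for 9 measures of the locus, PCDHGC3 and PCDHGC4), the gap from the highest or lowest library to the next was compared with the whole range. Chance alone marks about 1 in 20 groups, and 2 of 18 were marked. At PCDHGC3, the C-type open in every library, the fold of WT replicate 2 was 5.37 and that of the other WT and LOF libraries 6.32 to 6.43, so the gap was 0.891 of the range. The width of the PCDHGC3 peak was 799 bp in Y641F replicate 1 and 815 to 818 bp in the other GOF libraries, so the gap was 0.842 of the range. The second is a difference of 16 bp.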

How the results depend on the processing

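Of 86 comparisons of a result with an alternative, 59 kept their direction and side of the threshold or, for a count, stayed within 1.5 times the reported one. When only peaks with a −log10 q of 5 or more were kept, the mean number of open members was 3 in WT, 1.5 in Y641F, 2.5 in A677G and 2 in the LOF libraries (9, 2.5, 3.5 and 6 with all peaks). Only 2 members, PCDHGC3 and PCDHGC4, were then open in both WT libraries, and 0 of these 2 were lost in any mutant. Among all 9984 promoters open in both WT libraries under this cut, the LOF line lost 11.2%, the A677G line 16.1% and the Y641F line 29.6%. At equal peak numbers the mean was 3.5 in WT, 2.5 in Y641F and 3 in A677G, while the LOF mean of 4.5 was above that of WT. Of the 3 members then open in both WT libraries, Y641F lost 1 and the other mutants 0. The lost member was PCDHAC1, whose Y641F peaks lay just outside the window. The share lost among all 10537 such promoters was 1.65% for the LOF line, 1.53% for A677G and 2.78% for Y641F. With the 5′ end of the gene as TSS, 1 of 6 members was lost in A677G, against 3.29% of all promoters. The difference of GOF and other libraries in locus peaks per 10000, -0.90, was 0.51 at a −log10 q of 5 or more and -0.19 with equal numbers (exact permutation p = 0.657), and the difference in bp per Mb under peaks, -48.8, was 65.3 and 6.55. As raw covered length it was -3890.5 bp (exact permutation p = 0.0286). Raw length is not scaled to the library. Over the genome, peaks covered 15.2 to 27.0 Mb in the GOF libraries and 29.7 to 42.5 Mb in the WT and LOF libraries, so this setting cannot separate the locus from the whole list. Under the replicate block, the difference of -0.90 peaks per 10000 had an exact p of 0.0556, the smallest this permutation allows, and that of covered length 0.167.

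Leaving out 1 library gave 2 to 3 open members in Y641F, 3 to 4 in A677G, and 9 in WT and 6 in H689A/F667I as before. Lost members ranged from 4 to 6 in Y641F, 3 to 4 in A677G and 1 to 3 in H689A/F667I, of 7 or 9 open in WT. Over all promoters the share lost ranged from 8.82 to 17.7% in Y641F, 3.96 to 6.51% in A677G and 2.97 to 3.87% in H689A/F667I. The differences ranged from -1.09 to -0.72 peaks per 10000 and from -66.9 to -34.8 bp per Mb. The causes were not tested. Windows of 500 and 1000 bp to each side moved PCDHAC1 from lost to retained in Y641F and opened PCDHA5 in 1 WT library. The depth of the libraries is unknown, so a weak peak called in WT and missing in a mutant list with fewer peaks is not shown to be closed chromatin.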
